A study of Rattus norvegicus with 11 samples.

Results

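The first 7 days of the conversion of DAc2, a rat embryonic stem cell line, toward hypoblast stem cells without feeders were followed by comparing 3 arrays, 1 of day 0 and 2 of day 7, among the 11 Affymetrix Rat Gene 1.0 ST arrays of the study. The arrays were selected by their labelled culture and day, and all 14506 genes with a name were compared. The day 0 cells grew on laminin in N2B27 medium with 3 µM CHIR99021, which blocks the kinase GSK3 and so keeps Wnt signalling on, 2 µM PD0325901, which blocks MEK and thereby ERK, and 5 ng/mL BMP4. The day 7 cells had been moved to a maintenance medium for multipotent adult progenitor cells with LIF, EGF, PDGF and 2% serum. The feeder-free arm also held 2 arrays each at days 17 and 32, and a second arm of 4 single arrays started from the same line kept on mouse embryonic fibroblasts with 3 µM CHIR99021, 0.5 µM PD0325901 and no BMP4. Each feeder-free pair is labelled as biological replicates, but separate cultures are not named, so p values measure the spread between these arrays, which could be technical. The line is the only one used. The switch of medium and the time spent in it changed together and cannot be told apart. CHIR99021, PD0325901, BMP4, LIF, EGF, PDGF and serum all changed in that switch, so their parts cannot be told apart either.

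The hypoblast, or primitive endoderm, is the layer of the blastocyst that lines the cavity beneath the pluripotent epiblast. Its cells carry Gata6, Gata4, Sox17 and the PDGF receptor alpha, and FGF signalling through ERK is known to favour it over the epiblast. It later gives rise to the visceral endoderm, which takes up and transports nutrients, and to the parietal endoderm, which secretes the thick basement membrane known as Reichert's membrane in rodents.

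Values are log2 RMA expression values, 1 per gene and array, and a change of 1 is a doubling. The pair of day 7 arrays correlated at 0.997 across genes, and 95% of genes differed by less than 0.383 between them. Receptor genes of smell and of the vomeronasal organ, which few other tissues use, served as a guide to background: 95% of their values lay below 8.10. A level below 8.10 cannot be told from background, so a change that starts or ends there may be understated. Levels of different genes come from different probes and were not set against each other.

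By day 7 the cells had lost much of their naive pluripotency programme, had raised regulators, matrix genes and uptake receptors of the extraembryonic endoderm, and showed genes of the trophoblast and of placental hormones that were low again at day 17. In the limma fit, 5348 of 14506 genes were called at an adjusted p under 0.05, with 2345 rises (16.2% of the genes) and 3003 falls (20.7%), the shares beside which the counts of each list are to be read. The day 0 value lay outside both day 7 values in all 5348, which is no separate support, because the calls rest on the same arrays. Falls were more numerous but smaller: 358 genes rose and 170 fell by at least 2, 135 rose and 38 fell by at least 3, and 48 rose and 6 fell by at least 4. The median change of all genes was -0.05. The split depended on the scaling of the arrays. It was 2073 rises and 4027 falls with each array centred on the median of its named genes. With quantile normalization it was 2845 rises and 3031 falls. Day 0 is a single array, assumed here to vary like the pairs of days 7, 17 and 32.

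Most factors of the naive pluripotent state were lower at day 7. Of 17 measured genes of naive and general pluripotency 13 fell, 2 rose and 2 did not pass, with a median change of -1.71. Nanog, which stabilizes the pluripotent state, read 13.92 at day 0 and 10.14 and 10.26 at day 7. It fell by 3.72 ± 0.19 (SE, adjusted p = 2.38e-09), a 13.1-fold drop. Sox2, the partner of Oct4 on DNA, read 13.68 at day 0 and 10.73 and 10.90 at day 7 and fell by 2.87 ± 0.12 (adjusted p = 3.94e-10). Both day 7 arrays of either gene lay far below the day 0 array. In bulk RNA, fewer cells with a transcript and less of it per cell cannot be told apart.

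Pou5f1, which encodes Oct4, had the smallest fall of these 3 core factors. It read 14.93 at day 0 and 13.57 and 13.72 at day 7 and fell by 1.29 ± 0.13 (adjusted p = 1.90e-06), and on the later days it stood at 13.80 and 14.34. The naive transcription factors Tfcp2l1, Klf2, Nr5a2, Esrrb and Tbx3 fell, with changes of -2.80, -2.63, -1.78, -1.71 and -1.34, Nr5a2 ending at background. Gdf3, a TGF-beta family ligand of pluripotent cells, fell by 2.97, Fgf4, the FGF that epiblast cells secrete, fell by 2.53, and Dppa3, a maternal-effect gene, fell by 1.82. Klf4 rose slightly, from 11.36 to 11.72 and 11.68, and Lin28a, an RNA-binding protein of early embryonic cells, rose by 0.74. Klf5, which read 14.38 at day 0 and 14.51 and 14.61 at day 7, did not pass, with a change of 0.18 ± 0.12 (adjusted p = 0.294).

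Genes of the primed epiblast moved in both directions, 3 up, 3 down and 4 of 10 not called. Nodal, the ligand that patterns the epiblast, read 13.54 at day 0 and 11.07 and 10.99 at day 7 and fell by 2.50, and Lef1 and Zic2 fell, with changes of -2.53 and -1.89. Lefty1 and Lefty2, inhibitors of Nodal, went the other way: Lefty1 read 9.51 at day 0 and 11.46 and 11.76 at day 7 and rose by 2.11, and Lefty2 rose by 1.56 from a day 0 level at background. Lefty1 stood at 8.57 at day 17. Fgf5, the usual marker of the primed state, was below 8.10 on all 3 arrays, the lowest at 7.95.

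Regulators of the hypoblast were among the genes that went up most. Of 10 measured, 8 rose, none fell and 2 did not pass, with a median change of 3.13. The other 2, Cited1 and Sox18, changed by 0.21 and 0.13. Gata6, the first factor to mark the lineage in the blastocyst, read 9.96 at day 0 and 13.99 and 14.16 at day 7 and rose by 4.11 ± 0.13 (adjusted p = 1.78e-11), a 17.3-fold rise. Gata4 read 9.79 at day 0 and 13.86 and 14.02 at day 7 and rose by 4.15 ± 0.12. Sox17, an endoderm factor, read 10.78 at day 0 and 14.23 and 14.38 at day 7 and rose by 3.52 ± 0.13. Each pair of day 7 arrays lay well above the day 0 value, which for these 3 genes was itself above background.

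Pdgfra, the receptor for the PDGF of the conversion medium, had the largest change of the list. It read 8.50 at day 0 and 13.48 and 13.59 at day 7 and rose by 5.03 ± 0.12 (adjusted p = 2.10e-12), a 32.6-fold rise. The relative Pdgfrb, at 8.77 at day 0 and 8.91 and 9.17 at day 7, did not pass (adjusted p = 0.136). Rspo3, a secreted enhancer of Wnt signalling, rose from background by 3.79, Sox7 by 2.74, Foxa2, an endoderm forkhead factor, by 2.68, and Foxq1 by 0.99. Gata4, Gata6, Sox17 and Pdgfra all rose again between days 7 and 17, by 0.51, 0.60, 0.66 and 0.46. The day 17 comparison shares the day 7 arrays with the first one and is given here only for the course of each gene.

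Genes of the apparatus by which the yolk sac takes up proteins were higher at day 7. Of 9 listed 6 were measured, and all 6 rose, where 16.2% of all genes did. Cubn encodes cubilin, a receptor for vitamin B12 carriers and other proteins. It read 8.82 at day 0 and 13.31 and 13.59 at day 7 and rose by 4.63 ± 0.15. Dab2, the adaptor that links such receptors to clathrin, read 8.76 at day 0 and 13.04 and 13.18 at day 7 and rose by 4.35. Lrp2, or megalin, the partner of cubilin, rose by 2.55, its chaperone Lrpap1 rose by 1.53, Amn, or amnionless, rose by 1.34, and the lysosomal protease Lgmn rose by 1.19.

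Markers of the parietal endoderm rose, while most of those of the visceral endoderm did not pass the test. Of 11 measured parietal genes 10 rose and 1 fell, with a median change of 2.76. Of 24 visceral genes 7 rose, 1 fell and 16 did not pass, with a median of 0.00, and 11 of the 24 were at background on both days. No test of the difference between the lists was made, and several genes stand in more than 1 list. Pth1r, the receptor for parathyroid hormone-related protein that drives parietal differentiation, read 8.05 at day 0 and 13.17 and 13.29 at day 7 and rose by 5.18 ± 0.12 (adjusted p = 2.00e-12). Srgn, the proteoglycan core serglycin, read 9.75 at day 0 and 14.63 and 14.72 at day 7 and rose by 4.93. Thbd, or thrombomodulin, read 6.15 at day 0 and 10.49 and 10.64 at day 7 and rose by 4.42 from a level within background. Snai1, a repressor of E-cadherin, Plat, the tissue plasminogen activator, and Fst, or follistatin, rose by 2.87, 2.62 and 1.57. The exception was Krt19, a keratin, which read 14.08 at day 0 and 12.32 and 12.44 at day 7 and fell by 1.70.

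Of the 7 visceral genes that rose, Cubn and Amn also stand in the uptake list, and the others were Ihh, Fgg, Spink1, Hnf4a and Fga. Ihh, the hedgehog ligand of the visceral endoderm, read 9.40 at day 0 and 10.84 and 11.02 at day 7 and rose by 1.53 ± 0.13, and it stood at 12.35 at day 32. Spink1, a secreted protease inhibitor, rose by 0.61, and Hnf4a, the master regulator of visceral and liver genes, rose by 0.56, to 9.36 and 9.18. The secreted carriers that define a working visceral endoderm did not pass the test: Afp read 8.36 at day 0 and 8.53 and 8.19 at day 7, Ttr 7.93 at day 0 and 7.73 and 7.97 at day 7, Apob 7.03 at day 0 and 7.21 and 6.96 at day 7 and Apoa1 8.61 at day 0 and 8.63 and 8.47 at day 7. All values of Ttr and Apob lay at background. Apoe, a lipid carrier that the stem cells already made, fell by 0.75. The 3 fibrinogen chains were at background on all 3 arrays; Fgg and Fga passed with rises of 0.92 and 0.46 within it.

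**Figure D1:**
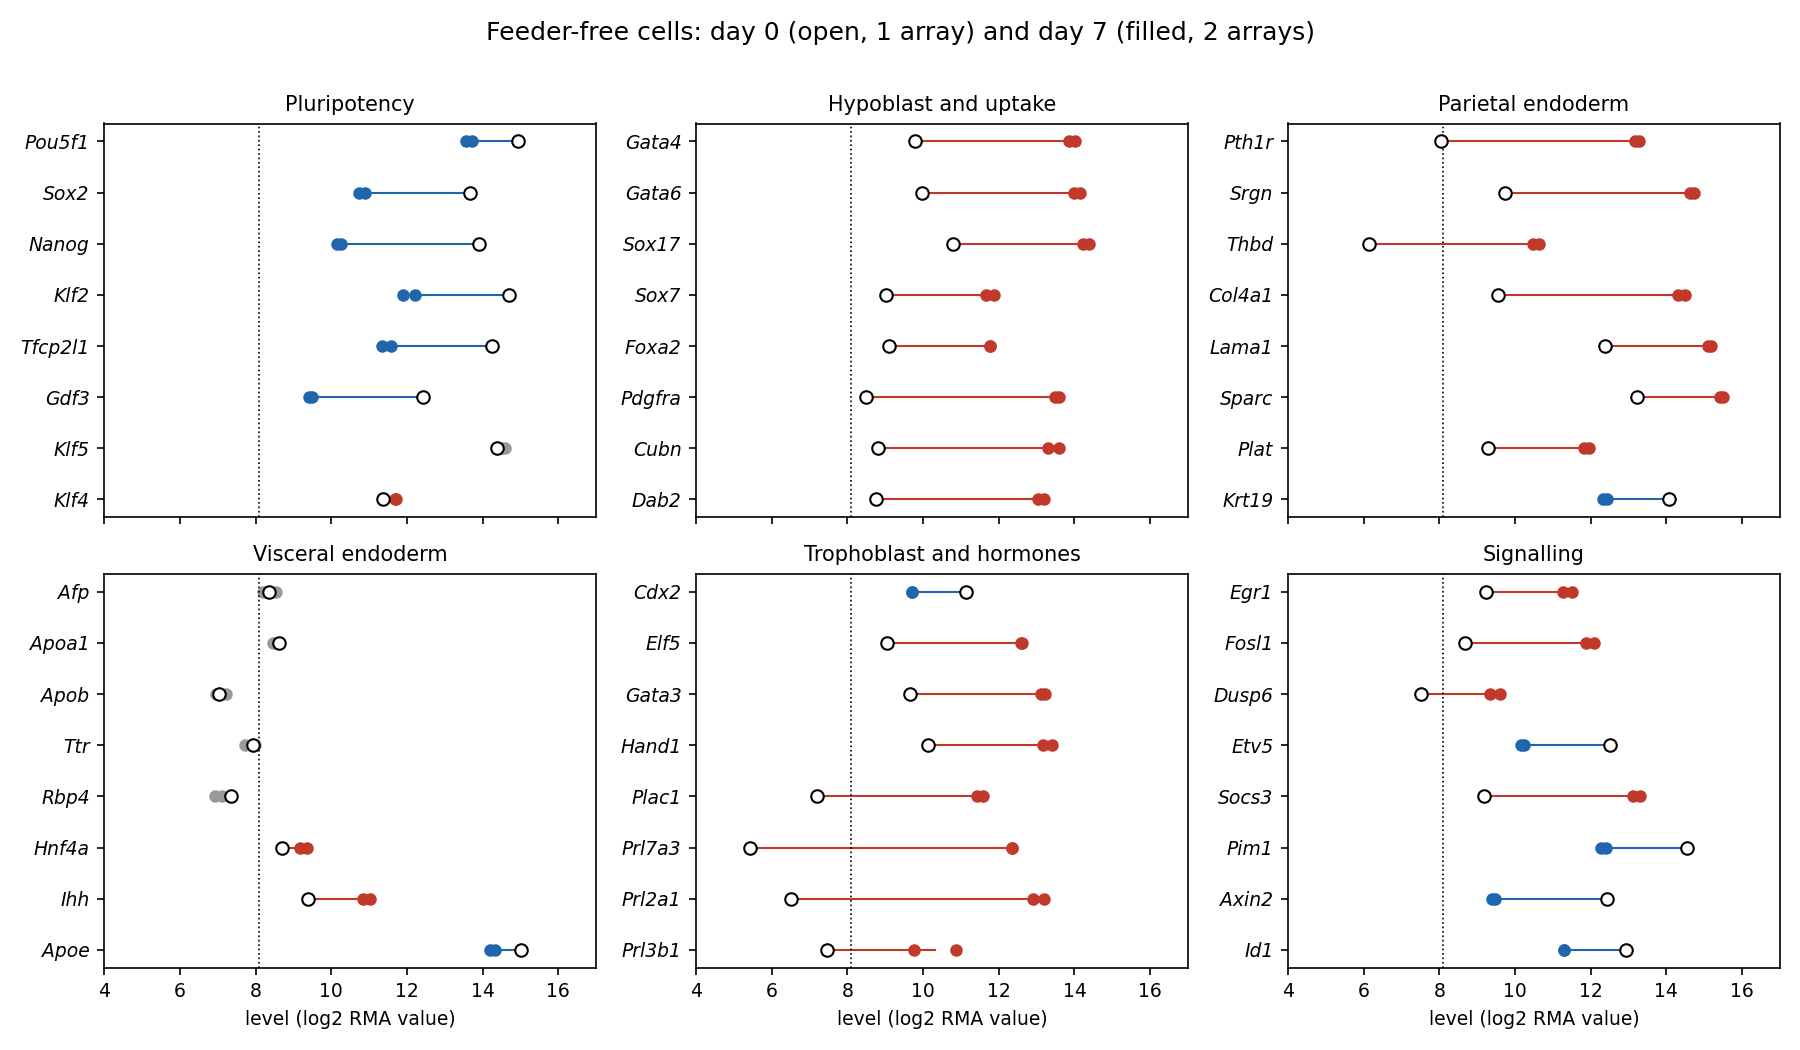
Level of 48 genes on the single day 0 array (open circles) and both day 7 arrays (filled circles) of the feeder-free cells, on the log2 scale; red marks called rises, blue called falls, grey genes that did not pass, and the dotted line is the upper edge of background at 8.10. The hypoblast genes and the parietal genes except Krt19, which fell, move to the right by up to 5.18. Of the 8 visceral genes shown 5 did not pass, and Pou5f1 and Klf5 stay high. Levels of different genes are not comparable.

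The matrix that these cells are known to secrete rose together with the enzymes that process collagen. Of 22 measured genes of the basement membrane and of collagen processing 13 rose and 2 fell, with a median change of 1.23. Col4a1, a chain of type IV collagen, read 9.54 at day 0 and 14.31 and 14.49 at day 7 and rose by 4.86 ± 0.13 (adjusted p = 3.98e-12). Lama1 and Lamc1, chains of laminin-111, were already high at 12.37 and 12.56 and rose by 2.76 and 2.53, and Sparc, a collagen-binding matrix protein, rose by 2.23. Other laminin and collagen IV chains did not pass: Lama5, Lamb2, Col4a3 and Col4a4 changed by 0.14, 0.18, -0.05 and -0.18.

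Among the collagen enzymes, P3h2, a prolyl 3-hydroxylase, read 7.75 at day 0 and 13.18 and 13.33 at day 7 and rose by 5.51 ± 0.13, a 45.5-fold rise from a level at background. Serpinh1, the collagen chaperone HSP47, read 9.82 at day 0 and 14.75 and 14.85 at day 7 and rose by 4.98. The prolyl 4-hydroxylases P4ha1 and P4ha2 rose by 1.73 and 3.42, and the lysyl hydroxylases Plod1, Plod2 and Plod3 by 3.25, 2.10 and 1.83. P3h1 and Crtap, which work as a complex on fibrillar collagen, did not share this: P3h1 changed by 0.11 and did not pass, and Crtap fell by 0.47. Fn1, or fibronectin, was high on all arrays at 15.01 at day 0 and 14.66 and 14.72 at day 7 and did not pass.

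Of 20 genes of the secretory pathway 12 rose and 2 fell. Creb3l1, a membrane-bound transcription factor that drives collagen secretion, read 9.63 at day 0 and 13.87 and 14.03 at day 7 and rose by 4.32 ± 0.13. Its relative Creb3l2 rose by 3.58, and Xbp1, the factor of the unfolded protein response, rose by 1.94. The chaperones Hspa5 and Calr rose by 0.50 and 0.57, Hsp90b1 and Canx did not pass at 0.24 and 0.01, and Sdf2l1 and Kdelr3 fell, with changes of -1.42 and -0.59. In the lysosome 8 of 16 genes rose and 2 fell. The cathepsins Ctsz, Ctsc and Ctsl rose by 3.17, 2.83 and 1.83, Ctsb did not pass (0.14), and Lamp2 and Tfeb fell, Lamp2 with a change of -0.99 and Tfeb from 12.80 to 11.72 and 11.87.

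Regulators of the trophoblast were higher at day 7 as well. The trophoblast is the outer lineage of the blastocyst that forms the placenta, which is a lineage apart from epiblast and hypoblast. Of 12 measured regulators 10 rose, 1 fell and 1 did not pass, with a median change of 2.07. Gata3, a trophoblast GATA factor, read 9.64 at day 0 and 13.11 and 13.21 at day 7 and rose by 3.52 ± 0.13 (adjusted p = 8.87e-11). Elf5, a trophoblast stem cell factor, read 9.04 at day 0 and 12.59 and 12.61 at day 7 and rose by 3.56 ± 0.23 (adjusted p = 1.76e-08). Hand1, needed for giant cells, read 10.14 at day 0 and 13.17 and 13.42 at day 7 and rose by 3.16. Plac1, a placental membrane protein, Tfap2a, Ets2 and Gata2 rose by 4.31, 2.57, 2.37 and 1.25. Cdx2, the factor that starts the trophoblast lineage in the embryo, went the other way: it read 11.14 at day 0 and 9.70 and 9.72 at day 7 and fell by 1.43 ± 0.12. Tfap2c, high in both states at 12.48 at day 0 and 12.21 and 12.47 at day 7, did not pass.

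Most of these regulators came down again by day 17. Of the 12, 0 rose and 10 fell between days 7 and 17, where 16.5% of all genes rose and 7.36% fell (2391 and 1067 genes; 1700 and 1372 after quantile normalization, 1282 and 999 without the first day 7 array). Gata3 fell by 4.33 ± 0.11 to 8.83 (adjusted p = 4.37e-12), Elf5 fell by 4.56 to 8.04 and Hand1 fell by 3.68 to 9.61. Their day 17 means lay below the day 0 values of 9.64, 9.04 and 10.14. Plac1 fell by 2.47 to 9.03 and remained above its day 0 level of 7.19.

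Some prolactin-family hormones of the placenta rose from background by day 7. Of 20 genes of placental hormones and their relatives 10 rose, none fell and 10 did not pass, and 11 of the 20 were at background on both days. Prl7a3 read 5.43 at day 0 and 12.36 and 12.34 at day 7 and rose by 6.92 ± 0.12 (adjusted p = 1.39e-13), a 121-fold rise from a level at background. Prl2a1 read 6.51 at day 0 and 12.91 and 13.19 at day 7 and rose by 6.54 ± 0.16, and was at 6.65 at day 17. Ceacam9, a cell adhesion protein of the placenta, rose by 3.45, and Prl4a1 and Prl7b1 rose by 2.44 and 2.44. Prl3b1, or placental lactogen II, read 7.46 at day 0 and 9.76 and 10.87 at day 7, so its day 7 arrays lay further apart than those of the other named genes of the list, and it rose by 2.86 ± 0.29 (adjusted p = 2.37e-06). Prl8a2, Prl2c1, Prl3a1 and Psg29 were among the members that stayed at background. Genes of this family lie side by side and resemble one another, so the signal of a probe may be shared between them.

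Some genes of steroid synthesis and metabolism came up beside the hormones. Of 9 measured genes 5 rose, Hsd17b2 among them by 1.73, none fell and 4 did not pass. Cyp17a1, which makes androgens from progestins, read 7.75 at day 0 and 13.85 and 13.89 at day 7 and rose by 6.12 ± 0.13 (adjusted p = 6.01e-13). Star, which brings cholesterol into mitochondria for the first step, read 8.69 at day 0 and 12.25 and 12.24 at day 7 and rose by 3.55. Cyp11a1, the enzyme of that step, rose by 0.99, and Akr1c14, a hydroxysteroid dehydrogenase, rose by 5.25 from background. Cyp17a1 and Star were back at 7.93 and 9.02 at day 17, changes of -5.94 and -3.23, whereas Akr1c14 rose by another 0.62 to 13.88. Hsd3b2, Serpinb9d and Plet1, a steroid enzyme, a placental serpin and a trophoblast surface protein, were picked out after their values were seen: they rose by 4.67, 4.31 and 4.25 and stood at 8.37, 6.18 and 8.64 at day 17.

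Markers of other lineages gave a mixed picture. Cdh5, the cadherin of endothelial junctions, read 8.97 at day 0 and 13.62 and 13.64 at day 7 and rose by 4.67 ± 0.12 (adjusted p = 4.06e-12), and fell by 4.88 to 8.75 at day 17. Pecam1, another endothelial surface protein that pluripotent cells also carry, went from 12.29 to 10.85 and 10.92. Of the 11 endothelial and blood genes 5 rose, 2 fell and 4 did not pass. Among the last, Ptprc, Cd34 and Emcn were at background on all 3 arrays, with changes of -0.03, -0.28 and -0.02. Runx1 rose by 1.90 and Tek rose by 1.36, and both rose again by day 17. Of 10 genes of mesendoderm and mesoderm 1 rose and 1 fell: Kdr rose by 0.70 and Evx1 fell by 0.58, while Tbxt, Mixl1 and Mesp1 did not pass at 0.10, -0.22 and -0.15.

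No measured gene of the fibroblast list rose in these feeder-free cells. Of the 17 measured, Col5a1 alone passed and fell by 0.56, and the mean level of the list was 8.49 at day 0 and 8.45 and 8.37 at day 7. Postn, Lum, Dcn and Fap were at background on both days. Of 9 neural genes 3 fell and 1 rose. Tubb3, a neuronal tubulin, read 12.07 at day 0 and 9.84 and 9.89 at day 7 and fell by 2.20, Map2, a neuronal microtubule protein, fell by 1.97 into background, and Nes, or nestin, rose by 0.71.

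**Figure D2:**
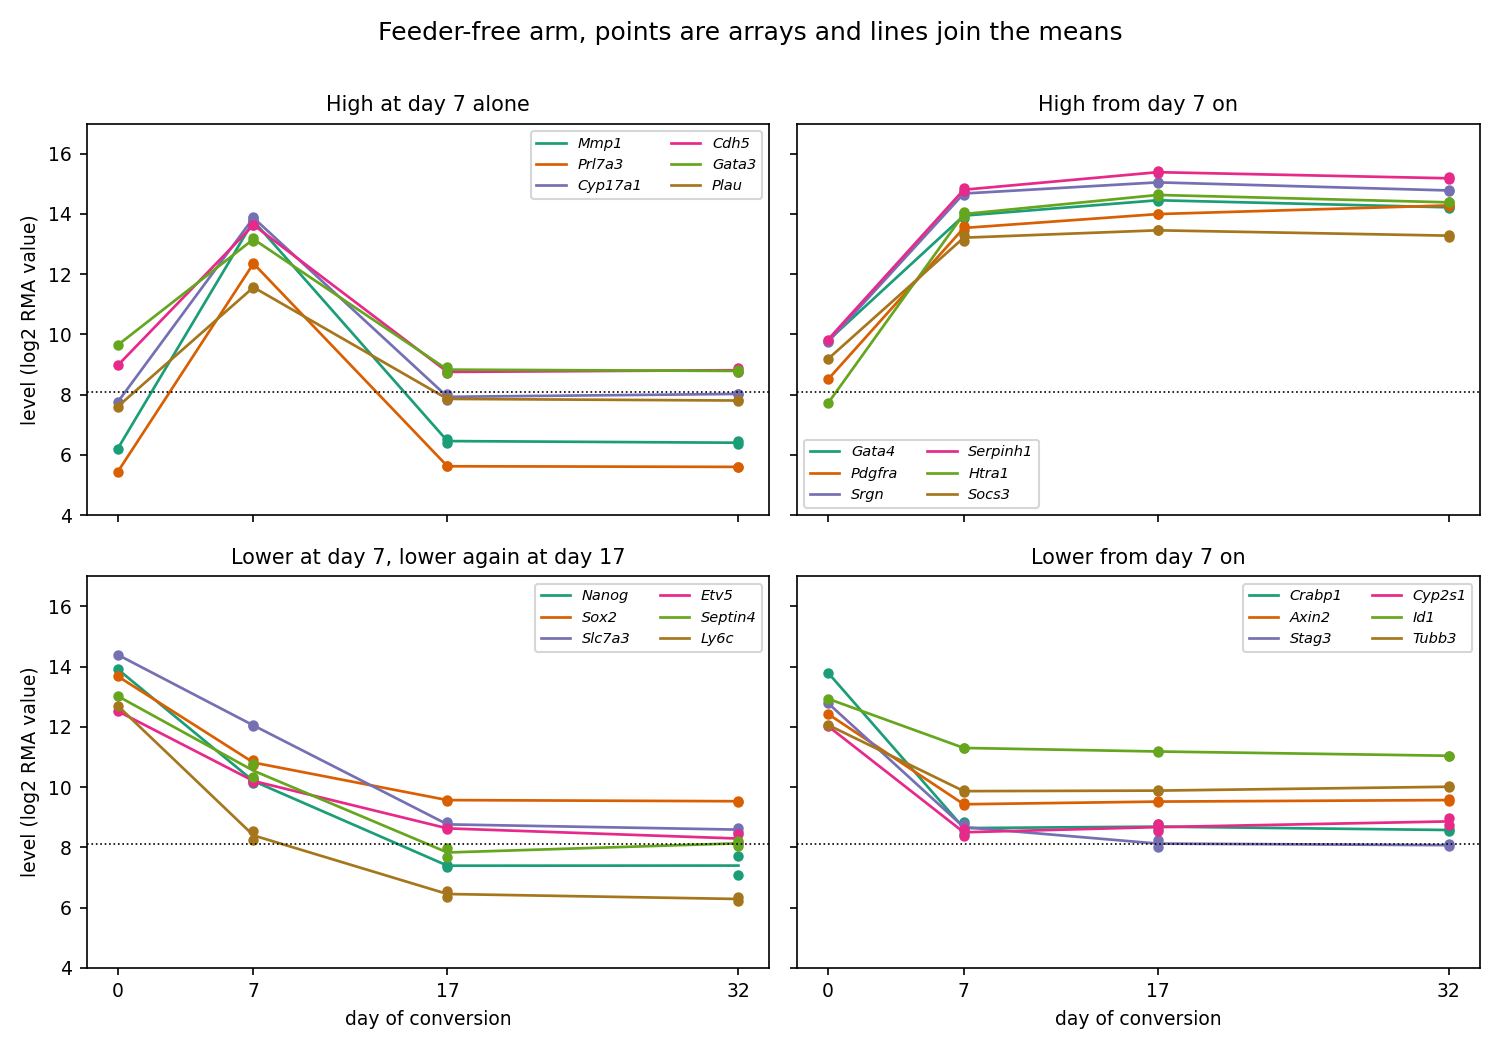
Level on the log2 scale (vertical) against day of conversion (horizontal) for 24 genes of the feeder-free arm; points are single arrays, lines join the means, and the dotted line is the upper edge of background at 8.10. Mmp1, Prl7a3, Cyp17a1, Cdh5, Gata3 and Plau peak at day 7, Gata4, Pdgfra, Srgn, Serpinh1, Htra1 and Socs3 stay up, and Nanog, Sox2, Slc7a3, Etv5, Septin4 and Ly6c are lower again at day 17.

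Targets of ERK were higher at day 7. The labels list the MEK inhibitor for the day 0 medium, and EGF, PDGF and serum for the conversion medium. Their parts in the changes of these genes were not tested. Of 21 measured targets and feedback genes 18 rose and 3 fell, against 16.2% and 20.7% of all genes, and the median change was 1.53. Fosl1, a member of the AP-1 family, read 8.69 at day 0 and 12.10 and 11.87 at day 7 and rose by 3.29 ± 0.19 (adjusted p = 6.95e-09). Egr1, an immediate early transcription factor, read 9.24 at day 0 and 11.26 and 11.52 at day 7 and rose by 2.15 ± 0.14. Jun, Junb and Fos rose by 2.88, 2.17 and 2.08. The immediate early genes thus moved together, each with both day 7 arrays above day 0.

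The feedback inhibitors that ERK induces also rose. Dusp4, a phosphatase of ERK, read 10.34 at day 0 and 12.51 and 12.67 at day 7 and rose by 2.25, and Dusp6, the cytoplasmic ERK phosphatase, rose from 7.52, at background, to 9.35 and 9.59. Dusp5, Spry1, Spry2 and Spry4 rose by 1.51, 1.19, 0.90 and 0.52. Etv5, an ETS factor downstream of FGF that pluripotent cells carry, went against the list: it read 12.52 at day 0 and 10.16 and 10.25 at day 7 and fell by 2.32 ± 0.14 (adjusted p = 1.01e-08). Etv1 and Spred2 fell, with changes of -0.71 and -0.75, while Etv4 rose by 0.71. At day 17 13 of the 21 were lower than at day 7 and 1 was higher. Fosl1 dropped by 3.46 to 8.52, while Jun and Dusp4 did not pass at -0.01 and -0.28.

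Serum response factor binds the CArG box, through which growth factors act on immediate early genes, and TCF proteins bind the motif CTTTGA, or its reverse complement TCAAAG, in Wnt targets. The 250 bases upstream of the start site were searched on both strands in 33469 promoters of the RefSeq table (GRCr8). The lists were counted with a single promoter per gene, as were the 11968 measured genes with an entry. A CArG box lay in 1.50% of all promoters and in 1.18% of the measured genes. It lay in 3 of the 14 ERK targets with an entry, namely Egr1, Dusp5 and Etv1. CTTTGA lay in 13.9% of all promoters, in 12.3% of the measured genes and in 3 of the 8 Wnt targets with an entry, namely Axin2, Nkd1 and Dkk1. Of these, Egr1, Dusp5 and Dkk1 rose, Axin2 and Etv1 fell, and Nkd1 did not pass, so a match did not go with 1 direction. Both lists hold known targets, so their shares do not bear on the change. A CArG box lay in 1.72% of the called rises of at least 1 and in 1.02% of such falls. For CTTTGA these shares were 10.6% and 11.4%. Both promoters shown are on the plus strand. That of Egr1, at chr18:26736828-26737077, was picked after the matches were seen and has 2 CArG boxes, starting at -105 and -83 from the start site; that of Axin2, at chr10:94398535-94398784, has 2 TCF motifs, starting at -232 and -132. Capitals mark the matches.
Egr1: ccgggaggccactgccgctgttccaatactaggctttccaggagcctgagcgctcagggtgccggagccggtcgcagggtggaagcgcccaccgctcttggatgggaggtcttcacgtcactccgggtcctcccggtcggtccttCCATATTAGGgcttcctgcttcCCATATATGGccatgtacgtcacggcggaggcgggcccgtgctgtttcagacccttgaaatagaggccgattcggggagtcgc
Axin2: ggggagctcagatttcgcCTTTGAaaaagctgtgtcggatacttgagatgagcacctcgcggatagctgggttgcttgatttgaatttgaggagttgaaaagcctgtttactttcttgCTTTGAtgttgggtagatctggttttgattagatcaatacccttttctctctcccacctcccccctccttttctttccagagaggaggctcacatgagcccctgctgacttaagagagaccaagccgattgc
Fosl1, the ERK target with the largest rise, has no CArG box in this window.

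Of 15 genes of the LIF receptor and JAK-STAT pathway 11 rose and 2 fell. The labels list LIF for the conversion medium alone, and its part in these changes was not tested. Socs3, the feedback inhibitor that STAT3 induces, read 9.18 at day 0 and 13.11 and 13.30 at day 7 and rose by 4.03 ± 0.13 (adjusted p = 2.18e-11), and stood at 13.45 and 13.28 on the later days. Osmr, the receptor for oncostatin M, read 6.75 at day 0 and 10.27 and 10.30 at day 7 and rose by 3.54. Lif itself, Cish, Stat3 and Jak2 rose by 1.85, 1.52, 0.84 and 0.84. Lifr, the receptor subunit of LIF, fell by 0.64, while its partner Il6st rose by 0.42. Pim1, a kinase that STAT3 is known to induce, went against most of the list: it read 14.54 at day 0 and 12.27 and 12.41 at day 7 and fell by 2.21 ± 0.12.

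Several Wnt targets fell. The labels list CHIR99021 for the day 0 medium alone, and its part in these changes was not tested. Of 12 measured 5 fell and 2 rose, against 20.7% and 16.2% of all genes. Axin2, the best known feedback target of Wnt, read 12.43 at day 0 and 9.40 and 9.46 at day 7 and fell by 3.00 ± 0.12 (adjusted p = 1.72e-10), a 7.99-fold drop, and did not pass from there to day 17 (0.09). Lef1 and Tnfrsf19 fell, with changes of -2.53 and -2.37, and Rnf43, which removes Wnt receptors, fell by 0.54. Dkk1, a secreted Wnt inhibitor, went up, from 8.19 to 10.80 and 10.81, and Ccnd1, which is also an ERK target, rose by 1.53. Lgr5 and Notum were at background on all 3 arrays.

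BMP targets, in cells that had BMP4 at day 0, mostly fell: 8 of 12 did so and 2 rose. The part of BMP4 in these changes was not tested. Id2, an inhibitor of helix-loop-helix factors, read 12.43 at day 0 and 10.09 and 10.38 at day 7 and fell by 2.19 ± 0.15. Id1 read 12.93 at day 0 and 11.30 and 11.30 at day 7 and fell by 1.63 ± 0.12, and Id3 and the pseudoreceptor Bambi fell, with changes of -1.58 and -1.61. Id4 and Nog, a secreted BMP inhibitor, rose by 1.41 and 1.13. Id1 stayed down on the later days, at 11.18 and 11.04.

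Growth factors and their receptors changed gene by gene. Of 27 measured 10 rose and 4 fell. The FGF receptors Fgfr2 and Fgfr4 rose by 1.77 and 1.45, Fgfr1, the main receptor of the epiblast, fell by 0.62, and Fgfr3 did not pass (0.27). Fgf10 read 8.73 at day 0 and 11.40 and 11.56 at day 7 and rose by 2.75, in contrast to Fgf4. Igf1r, the receptor for insulin-like growth factors, read 12.08 at day 0 and 9.64 and 9.64 at day 7 and fell by 2.44. Egfr, the receptor for the added EGF, was at background on all 3 arrays, between 7.80 and 7.85, and Erbb3 rose by 0.69. Pdgfa, a ligand of Pdgfra, fell by 0.74, and Pdgfb rose by 0.85.

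**Figure D3:**
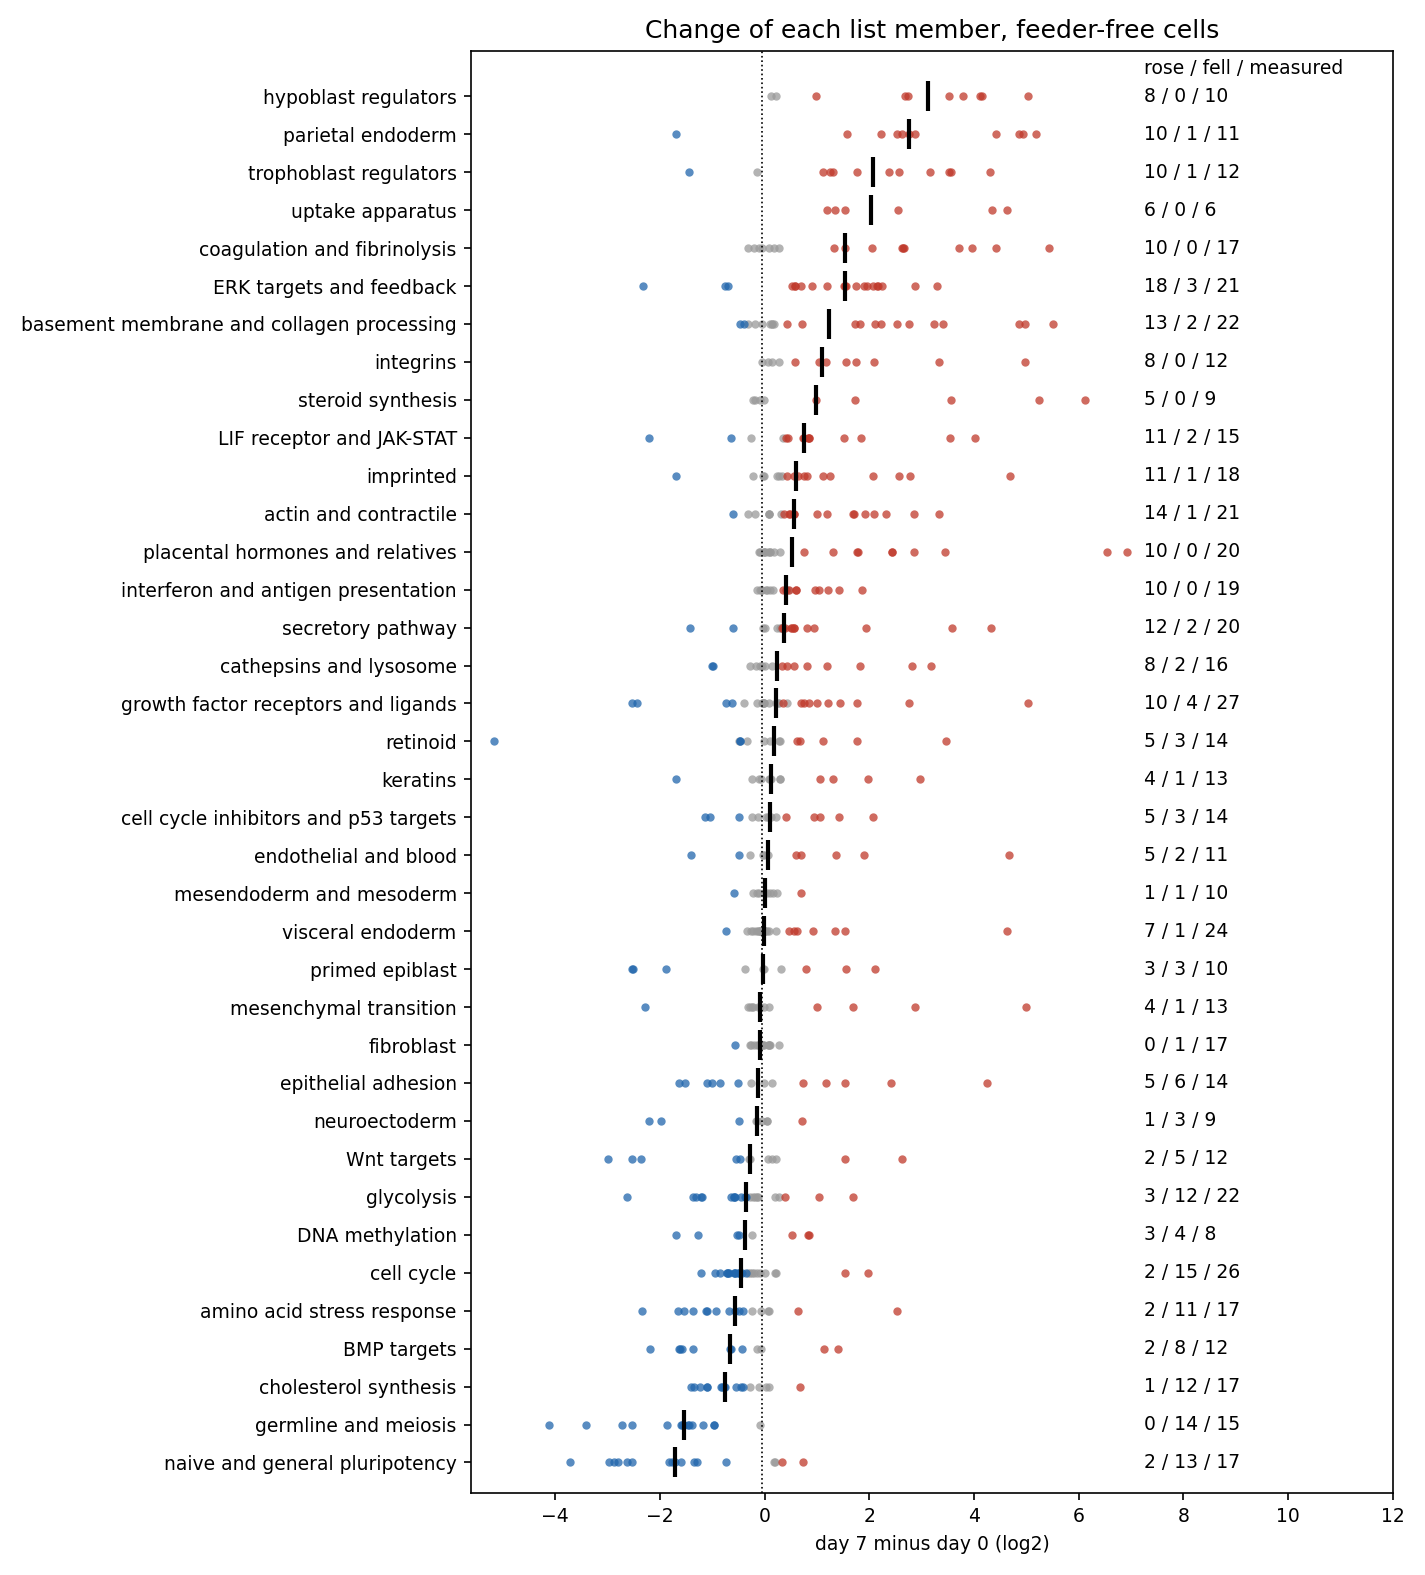
Change from day 0 to day 7 on the log2 scale for each measured member of 37 gene lists; red marks called rises, blue called falls and grey genes that did not pass, the black bar is the list's median, the dotted line the median of all genes, and the numbers give genes that rose, fell and were measured. Hypoblast regulators have the highest median at 3.13 and the genes of naive and general pluripotency the lowest at -1.71; without the dimmest 25% of genes placental hormones, with 2 of 20 genes left, have the highest at 4.99 (hypoblast regulators 3.52), and germline genes the lowest at -1.86 (naive and general pluripotency -1.74). Some genes stand in several lists.

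Adhesion genes changed in both directions. Of 14 epithelial adhesion genes 5 rose and 6 fell. Cdh1, or E-cadherin, read 13.62 at day 0 and 11.88 and 12.09 at day 7 and fell by 1.64 ± 0.13, Epcam fell by 1.51, and the tight junction genes Cldn7 and Ocln fell, with changes of -1.10 and -1.01. Cldn6, a claudin of early epithelia, read 10.74 at day 0 and 13.04 and 13.28 at day 7 and rose by 2.43, and the desmosomal Pkp2 rose from 8.23 to 12.46 and 12.48, a change of 4.24. Jup, or plakoglobin, rose by 1.55. Cdh2, or N-cadherin, also fell by 2.28, so that both of these cadherins were lower at day 7. The endothelial cadherin Cdh5 rose by 4.67.

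The intermediate filaments shifted as well. Vim, or vimentin, read 8.69 at day 0 and 13.66 and 13.72 at day 7 and rose by 5.00 ± 0.12 (adjusted p = 2.00e-12), a 32-fold rise. Krt8 and Krt18, the keratin pair of simple epithelia, rose by 2.97 and 1.97: Krt8 read 10.26 at day 0 and 13.19 and 13.27 at day 7, and Krt18 read 12.35 at day 0 and 14.25 and 14.39 at day 7. Krt7 rose by 1.31, and 8 of the 13 keratins did not pass. Vim is 1 of 13 measured genes tied to mesenchymal transition, of which 4 rose, 1 fell and 8 did not pass. Snai1, Cnn1 and Tagln, the last 2 of smooth muscle, rose by 2.87, 1.68 and 1.00, and Cdh2 was the member that fell. The transcription factors Snai2, Zeb1, Zeb2 and Twist1 did not pass and changed by -0.01, -0.25, -0.13 and -0.08.

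Integrins and the actin cytoskeleton rose with the matrix. Of 12 integrins 8 rose and none fell. Itga2, a subunit of a collagen receptor, read 8.35 at day 0 and 13.22 and 13.43 at day 7 and rose by 4.98 ± 0.13. Itga5, of the fibronectin receptor, rose by 3.33, Itgb6 rose by 2.10, and Itga6, of the laminin receptor, rose by 1.56. Itgb3 rose by 1.75 and then fell by 1.70 to 8.28 at day 17. Of 21 actin and contractile genes 14 rose and 1 fell. Acta1, the skeletal muscle actin, read 10.07 at day 0 and 13.38 and 13.44 at day 7 and rose by 3.34, Flna, or filamin A, rose by 2.86, and the tropomyosins Tpm1, Tpm2 and Tpm4 rose by 1.92, 2.33 and 2.08. The cytoplasmic actins Actb and Actg1 did not pass, at 0.09 and -0.31.

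A set of clotting and fibrinolysis genes known from the parietal yolk sac and the trophoblast was raised. Of 17 measured 10 rose and none fell, with a median of 1.54 (2.34 over the 14 genes left without the dimmest 25%). F3, or tissue factor, read 9.15 at day 0 and 14.51 and 14.65 at day 7 and rose by 5.43 ± 0.13 (adjusted p = 2.00e-12). Plau, the urokinase activator, read 7.60 at day 0 and 11.54 and 11.58 at day 7 and rose by 3.96, and Tfpi, the inhibitor of tissue factor, read 10.27 at day 0 and 14.01 and 13.97 at day 7 and rose by 3.72. Procr and Plaur rose by 2.64 and 1.54. The later courses parted: F3 stood at 15.01 at day 17, while Plau and Tfpi fell, with changes of -3.71 and -4.24 to 7.86 and 9.75. The clotting factors made in liver, F2, F5, F7 and F10, did not pass, at 0.28, -0.32, 0.09 and -0.20.

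Germline genes that embryonic stem cells express were turned down. Of 15 measured 14 fell and none rose, against 20.7% and 16.2% of all genes, with a median change of -1.54. Stag3, a meiotic cohesin subunit, read 12.79 at day 0 and 8.57 and 8.78 at day 7 and fell by 4.12 ± 0.14 (adjusted p = 4.78e-11). Smc1b, its meiotic partner, read 11.59 at day 0 and 8.34 and 8.03 at day 7 and fell by 3.41. The piRNA pathway genes Mael, Tdrkh and Piwil2 fell, with changes of -2.73, -2.54 and -1.58, as did Ddx4 and Dazl, with changes of -1.54 and -1.46. Taf7l alone did not pass, and it was at background on both days.

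Genes of DNA methylation, 8 in number, split into 3 rises and 4 falls. Zfp57, which protects imprints, read 12.82 at day 0 and 11.08 and 11.20 at day 7 and fell by 1.68, Uhrf1, which brings Dnmt1 to replicated DNA, fell by 1.27, and Dnmt1 fell by 0.49. The de novo enzymes Dnmt3a and Dnmt3b rose by 0.52 and 0.86, and their cofactor Dnmt3l fell by 0.53.

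Imprinted genes, which are read from 1 parental copy and many of which act in the placenta, included 11 rises and 1 fall among 18 measured, against 16.2% and 20.7% of all genes. Phlda2, a brake on placental growth, read 9.71 at day 0 and 14.31 and 14.47 at day 7 and rose by 4.68 ± 0.13 (adjusted p = 5.43e-12). The non-coding RNAs H19 and Meg3 rose by 2.79 and 2.56: H19 read 12.09 at day 0 and 14.85 and 14.91 at day 7, and Meg3 read 10.54 at day 0 and 12.95 and 13.25 at day 7. Cdkn1c, a cell cycle inhibitor, rose by 2.08 and fell by 1.65 by day 17. Igf2r was the member that fell, with a change of -1.69. In the retinoid pathway 5 of 14 genes rose and 3 fell, a share of falls near the 20.7% of all genes. Crabp1, a cytoplasmic carrier of retinoic acid, gave the largest fall of all genes: it read 13.80 at day 0 and 8.85 and 8.43 at day 7 and fell by 5.16 ± 0.16 (adjusted p = 1.82e-11), a 35.8-fold drop. Stra6, the retinol uptake receptor, read 8.98 at day 0 and 12.42 and 12.48 at day 7 and rose by 3.47, and Cyp26a1, which degrades retinoic acid, rose by 1.76.

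Metabolic and proliferation genes moved down by smaller steps. Of 17 cholesterol synthesis genes 12 fell and 1 rose, of 22 glycolysis genes 12 fell and 3 rose, of 26 cell cycle genes 15 fell and 2 rose, and of 17 genes of the amino acid stress response 11 fell and 2 rose. The respective medians were -0.76, -0.36, -0.45 and -0.56. Centring each array on the median of its named genes moved the median change of all genes from -0.05 to -0.15, and small changes move with it. Among sterol enzymes, Sqle, the squalene epoxidase, read 13.38 at day 0 and 11.89 and 12.06 at day 7 and fell by 1.40 ± 0.13, and Dhcr7 and Hsd17b7 fell, with changes of -1.35 and -1.22. Insig1 and Lss did not pass, at 0.08 and 0.02.

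In glycolysis, Ldhb, a subunit of lactate dehydrogenase, read 13.81 at day 0 and at most 11.37 at day 7 and fell by 2.63, whereas Ldha did not pass (-0.27). Pgk1, Hk1 and Hk2 fell, with changes of -1.36, -1.31 and -1.20, while the phosphofructokinases Pfkp and Pfkm rose by 1.68 and 1.03. The D-type cyclins Ccnd1 and Ccnd3 changed in opposite directions: Ccnd1 read 8.76 at day 0 and 10.20 and 10.39 at day 7 and Ccnd3 14.07 at day 0 and 12.79 and 12.91 at day 7, changes of 1.53 and -1.22 on the log2 scale. Ccne2 rose by 1.98, and Mcm2, Ccnb1 and Top2a fell, with changes of -0.95, -0.72 and -0.70. Plk1 and Cdc20 did not pass, at -0.15 and -0.27. Among cell cycle inhibitors and p53 targets 5 of 14 rose and 3 fell, Cdkn1b with a change of -1.13, while Cdkn1a did not pass (0.06).

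Of the amino acid genes, the transporters Slc7a3, which carries arginine and lysine, and Slc7a5 fell, with changes of -2.35 and -1.66. Slc7a3 fell by 3.29 more, to 8.76 at day 17. Atf3, a stress-induced factor that growth factors also induce, rose from 9.30 to 11.86 and 11.81, and Atf4 did not pass (0.09). Of 19 interferon and antigen presentation genes 10 rose and none fell. B2m, the light chain of MHC class I, read 11.94 at day 0 and 13.78 and 13.82 at day 7 and rose by 1.86, Tap1 and Irf1 rose by 1.41 and 1.05, and Mx1, Ifit3 and Oas1a stayed at background.

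The 4 families that follow were chosen by symbol after the table had been opened. Of 71 cytosolic ribosomal protein genes 1 rose and none fell, with a median change of -0.03, and their changes ran from -0.38 to 0.35. Of 37 proteasome genes 2 rose and 5 fell. Of 58 respiratory chain subunits 19 fell and 1 rose, with a median of -0.24. Of 22 Hox genes 4 rose and 1 fell, a share of rises near the 16.2% of all genes, and all changes lay within 0.89 of no change.

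Some of the largest changes lay outside the lists. Mmp1, an interstitial collagenase, read 6.20 at day 0 and 13.76 and 13.77 at day 7 and rose by 7.56 ± 0.13 (95% interval 7.29 to 7.84, adjusted p = 1.39e-13), a 189-fold rise from background, and it was back at 6.46 at day 17. Htra1, a secreted serine protease, read 7.71 at day 0 and 13.91 and 14.07 at day 7 and rose by 6.28 ± 0.13. Sema6d, a membrane semaphorin, read 7.83 at day 0 and 13.81 and 13.88 at day 7 and rose by 6.02. Unlike Mmp1, both kept their level, at 14.63 and 14.38 at day 17.

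Adgrf5, an adhesion receptor, read 7.37 at day 0 and 13.56 and 13.75 at day 7 and rose by 6.29, and came down part of the way to 10.70 and then 9.19. Plac8 rose by 5.08 and fell by 3.62 by day 17. Tinagl1, a matrix protein related to the tubulointerstitial nephritis antigen, and Cmklr1, the receptor for chemerin, rose by 5.21 and 5.12 and stood at 14.80 and 13.92 at day 17.

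Among the 15 largest falls, Nefl, the light neurofilament, read 13.97 at day 0 and 9.71 and 10.15 at day 7 and fell by 4.04 ± 0.18, Syt9, a synaptotagmin, fell by 3.78, and Cpe, which processes neuropeptides, fell by 3.89. Acvr1c, the type I receptor ALK7 through which Nodal can signal, read 12.60 at day 0 and 8.13 and 8.58 at day 7 and fell by 4.25 ± 0.17. Ly6c, a surface antigen, fell by 4.31 and then fell by 1.95 more by day 17. Igfbpl1, Mep1a, Slc15a1, Creg1, Il1rn and Cyp2s1 fell, with changes of -4.03, -3.86, -3.80, -3.65, -3.59 and -3.52. Or1j4 carries the symbol of an olfactory receptor and was yet high in the stem cells: it read 11.09 at day 0 and 7.32 and 6.94 at day 7 and fell by 3.97. It is a member of the background family, in which 20 of 1239 genes rose and 44 fell.

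Cells that started on feeder layers changed in fewer genes by the same day. Their single arrays differed by at least 1 in 345 genes upward and 230 downward, against 963 and 823 in the feeder-free arm. In an 8-group limma fit the change to day 7 differed between the arms in 3193 genes, higher without feeders in 1618 (11.2% of all genes) and lower in 1575 (10.9%). With each array centred on the median of its named genes the split was 1477 higher and 2169 lower. The single feeder arrays are assumed to vary like the feeder-free pairs. The arms differed in feeder cells, PD0325901 dose and BMP4 at once, and these cannot be told apart.

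Nanog read 13.35 at day 0 and 13.29 at day 7 in the feeder arm, and the difference, feeder-free change minus feeder change, was -3.66 ± 0.30 (SE, adjusted p = 9.56e-07). Sox2 and Pou5f1 differed by -2.62 and -1.16. Gata4 and Gata6 went up in the feeder arm too, from 8.10 to 11.20 and from 9.11 to 11.25, and the feeder-free rises were larger by 1.06 ± 0.19 (adjusted p = 0.000924) and 1.98 ± 0.19. Sox17 and Pdgfra differed by 1.74 and 3.48. Not all genes separated the arms: Elf5 went from 8.92 to 11.97 on feeders, a difference of 0.52 ± 0.34 that did not pass (adjusted p = 0.357), and neither did those of H19 (0.50), Lgmn (0.30) and Tnfrsf19 (0.15).

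The largest differences toward the feeder-free arm included Htra1, Vim, Creb3l1, Mmp1 and Timp2, an inhibitor of matrix proteases, at 6.33, 5.24, 5.18, 4.70 and 4.58. Vim and Timp2 were already high on the feeder day 0 array, at 14.57 and 13.20, against 8.69 and 9.52 without feeders. The fibroblast list had a mean level of 9.94 and 9.27 on the feeder arrays of days 0 and 7, against 8.49 on the feeder-free day 0 array, and 6 of its 17 genes differed between the arms in the same direction as Vim. Feeder cell RNA as part of these differences was not tested. Toward the other side, Id1 went from 9.33 to 12.19 on feeders, where the starting medium held no BMP4, and differed by -4.49 ± 0.18 (adjusted p = 3.67e-09). Of the BMP targets Id2 and Id3, Id2 went up on feeders too, from 10.64 to 12.57, while Id3 went down, from 11.66 to 11.01. BMP4 as part of these differences was not tested. Cga, the alpha subunit of glycoprotein hormones, went from 8.13 to 12.11 on feeders and differed by -4.45. Isg15, an interferon-induced gene, went from 8.13 to 11.92, and its difference was -2.59 on the log2 scale.

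**Figure D4:**
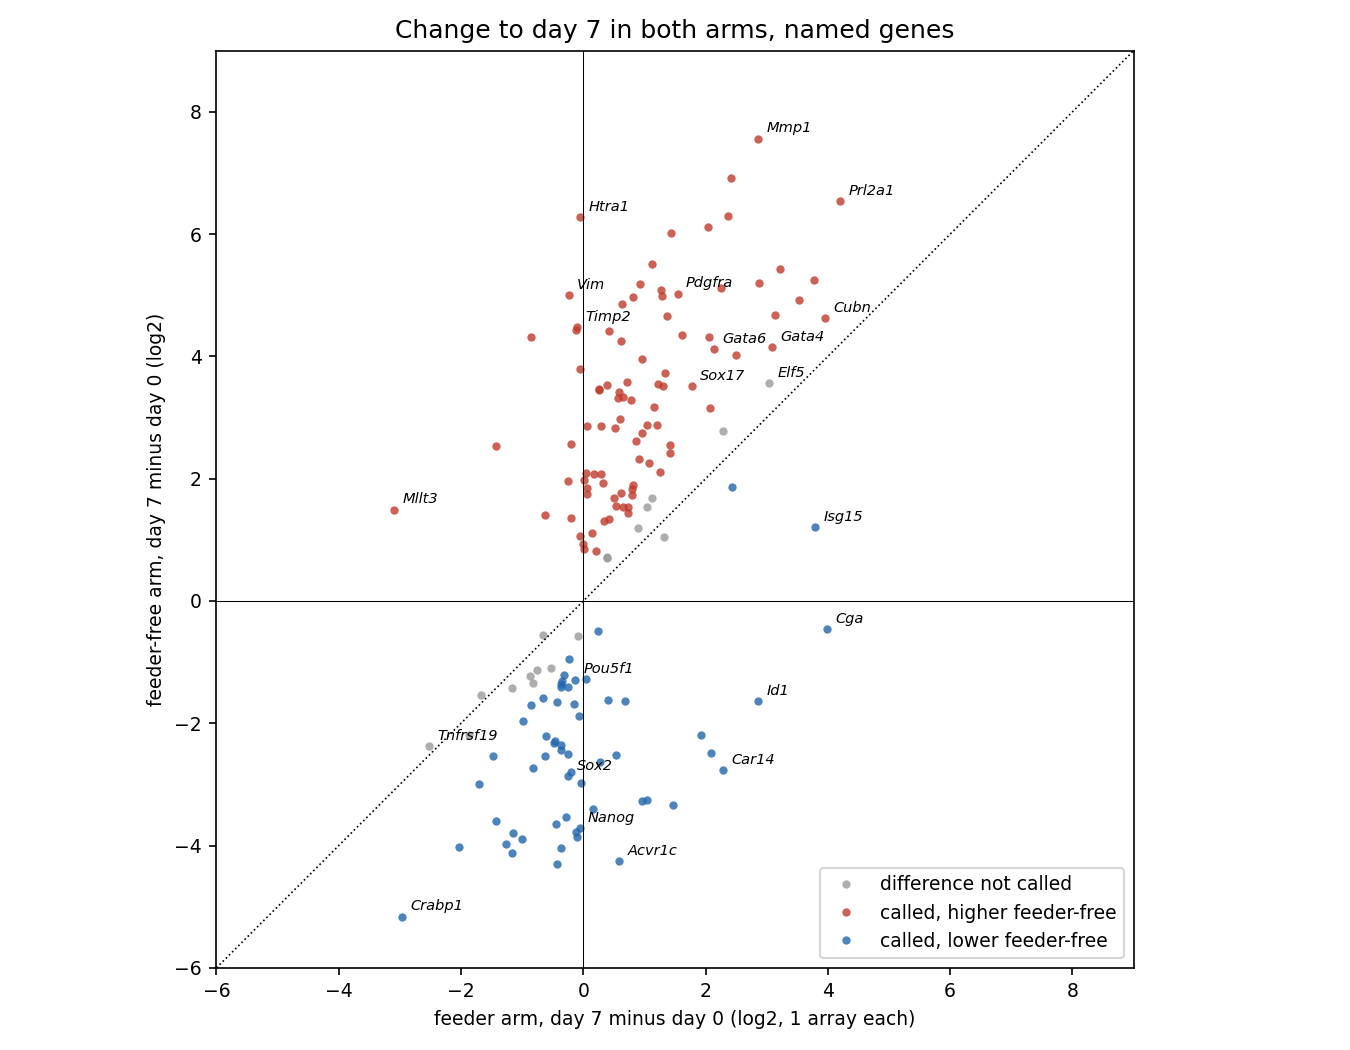
Change from day 0 to day 7 on the log2 scale in the feeder-free arm (vertical) against the feeder arm (horizontal, 1 array per day) for the 167 genes named by rule; red and blue mark genes whose change was called higher or lower without feeders, grey those whose difference did not pass, and the dotted line marks equal change. Of these genes, which were partly named for a large feeder-free change, 158 lie farther from 0 on the vertical than on the horizontal axis; Cga, Id1, Isg15 and Mllt3 are among those that do not.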

How the data were processed

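Total RNA was hybridised to 11 arrays, and the authors deposited a single table of log2 values. The submitters' processing notes name RMA, without a version. All 11 columns of the table had a median of 8.97; the step that set it is not given in the sources used here. Scanner files were not used, so detection could not be judged per probe, and RMA draws low values together. Of 29214 rows 15310 had 1 gene symbol in the platform annotation, 323 several and 13581 none, and 15279 identifiers matched the RefSeq table of GRCr8 with 0 symbols updated. Each of the 14506 genes was taken from its brightest row by mean (527 had more than 1 row), with no filter on dim genes. Background was the 95th percentile over 1239 receptor genes; symbols starting with Or were added to the rule (Olr, Vom1r, Vom2r) once the table was seen to use them.

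The labels gave each array its culture and day, which defined the groups. With limma 3.58.1 in R 4.3.3, 1 mean per day was fitted to the 7 feeder-free arrays (3 residual degrees of freedom) for day 7 minus day 0 and day 17 minus day 7, and 8 group means to all 11 arrays for the difference of changes between the arms. Benjamini-Hochberg adjustment ran over the 14506 genes, and calls needed an adjusted p under 0.05. Changes are log2 differences, and SE is the fit's standard error. The 3 arrays, the 37 gene lists and the naming rule were chosen with earlier results of these data known, and the lists are described by counts and medians without a test. Named were the 15 largest rises and falls with a mean above background, up to 4 called members per list (the largest 2 where none was called), 7 core factors, and the 8 largest differences each way between the arms; the text adds other list members with their values. The 4 families and any gene said to be picked afterwards were chosen with the table open. Promoters came from RefSeq (GRCr8). The fit was tested on simulated data, and figures were drawn with matplotlib 3.10.9. Alternatives left out the dimmest 25% of genes, averaged a gene's rows, kept all rows, or used quantile normalization, centring, eBayes with trend and robust, other sets of arrays or terms, a replicate block, stricter thresholds, or fewer arrays.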

Additional observations from a re-analysis of the deposited data

Results flagged for a closer look

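The change to day 7 differed between the feeder-free and the feeder arm in 3193 genes by the limma test of the difference itself (adjusted p under 0.05). Among the named genes so singled out, the change without feeders was higher than that on feeders by 6.33 for Htra1, 5.24 for Vim, 5.18 for Creb3l1, 4.70 for Mmp1, 4.59 for Mllt3, 4.59 for Sema6d, 4.58 for Timp2 and 4.55 for Csgalnact1. For the hypoblast genes the difference was 3.48 for Pdgfra, 1.98 for Gata6, 1.74 for Sox17 and 1.06 for Gata4. Mllt3 moved in opposite directions: it read 8.91 at day 0 and 10.33 and 10.47 at day 7 without feeders, and 11.71 and then 8.62 on feeders.

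The difference was below 0 for Car14 (-5.06), Acvr1c (-4.83), Cpne8 (-4.81), Septin4 (-4.57), Id1 (-4.49), Cga (-4.45), Cxcl12 (-4.29) and Ugt8 (-4.23), and for the pluripotency factors Nanog (-3.66), Sox2 (-2.62) and Pou5f1 (-1.16). Car14, a carbonic anhydrase, read 12.09 at day 0 and 9.28 and 9.36 at day 7 without feeders and 8.93 and 11.22 on feeders, so it fell in 1 arm while its single arrays in the other went up. Cxcl12, a chemokine, read 11.46 at day 0 and 8.11 and 8.31 at day 7 without feeders and 8.88 and 9.92 on feeders. Each feeder value is a single array, and the mean level of the fibroblast list was 9.94 on the feeder day 0 array and 9.27 on that of day 7; its part in these differences was not tested.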

How the results depend on the processing

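The count of 5348 genes called from day 0 to day 7 became 2322 (977 rises, 1345 falls) when day and culture were fitted as separate terms over all 11 arrays, which averages the change over both arms, and 1786 when a change of at least 1 was also asked for. Leaving out 1 array gave 5053 to 5462. The count from day 7 to day 17, 3458, ranged without 1 array from 2281, without the first of day 7, to 3424, and that of differences between the arms from 3097 to 3340 (main 3193). Of the 37 lists 23 had more rises than falls, and 23 to 24 without 1 array. Under the terms for day and culture the sign turned for Id1 (0.38), Mllt3 (-0.50) and Cga (1.35). The median of the fibroblast list ranged from -0.0949 to 0.007 when 1 array was left out, the lower value without the first day 7 array and the higher without the second. Over 2494 values of the 167 named genes under the alternatives, 2435 kept direction and call. A further 56 kept the direction and lost the call, and 3 turned. Of these 56, 54 arose under the terms for day and culture. The other 2 were Cga with quantile normalization and without the first day 7 array. Settings that leave a gene's change itself untouched, such as eBayes with trend and robust, could not turn its direction. The named genes were chosen largely because they were called or had large changes, so the 2435 is a weak check. Leaving out the dimmest 25% of genes moved the list medians of placental hormones from 0.52 to 4.99 (2 genes left) and of coagulation and fibrinolysis from 1.54 to 2.34. Of 518 list medians 446 moved by less than the spread between replicates, but the settings that leave the change itself untouched could not move them. That spread was taken from the 2 day 7 arrays, so leaving out 1 of them is a weak check. The replicate numbers did not pair the arrays (correlations of their deviations 0.03, -0.20 and -0.10); with a replicate block 5055, 3387 and 3068 genes were called in the 3 comparisons. The single day 0 array could not be left out, and signal over background per probe was not measured.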

Other observations

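A few large changes outside the lists and the naming rule were picked out after their values were seen. Susd2, a surface protein, read 9.73 at day 0 and 14.03 and 14.15 at day 7 and rose by 4.36. Mme, the peptidase neprilysin, read 8.30 at day 0 and 12.54 and 12.70 at day 7 and rose by 4.32, and Ache, or acetylcholinesterase, and Hs3st1, a heparan sulfate sulfotransferase, rose by 4.64 and 4.63. The gut hormone gene Pyy and the noradrenaline transporter Slc6a2 rose by 4.22 and 4.13. All 6 were still above their day 0 level at day 17, at 14.92, 13.53, 13.95, 14.31, 13.51 and 12.66. Among falls, Tmc1, a channel of hair cells, read 13.27 at day 0 and 9.83 and 9.86 at day 7 and fell by 3.43, Rhag, an ammonium transporter of red cells, read 12.87 at day 0 and 9.55 and 9.69 at day 7 and fell by 3.25, and Nefm, the medium neurofilament, fell by 3.01. Tmc1 and Rhag were lower again at day 17, at 8.10 and 7.47, with changes of -1.75 and -2.15 on the log2 scale.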
